A study of Mus musculus with 384 samples.

Results

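The cells described here belong to the mouse FS cell line 5ar2, a formative pluripotent stem cell line, and were read 1 cell at a time. Cells were sorted by flow cytometry into 96-well plates, 1 cell per well, and full-length cDNA was sequenced by Smart-seq2. A cell was taken as a member if its cell line label was 5ar2 and its summed counts in the deposited count table reached 3000000. This left 90 of the 96 cells of 5ar2 (93.8%, exact 95% interval 86.9–97.7%), out of 326 such cells among the 384 of the series. FS cells 5ar2 and 5ar1 were cultured in A3XR, the label's name for AloXR, a medium with low activin, the tankyrase inhibitor XAV939 and the retinoic acid receptor inverse agonist BMS493. The other cells were EpiSCs, the primed state: AFX6 was cultured in AFX, which holds activin, Fgf2 and XAV939, and AF32 in AF, which holds activin and Fgf2. No genetic change, treatment or embryo age is given in the labels for any of the 4 lines. With the same threshold, 90 cells of 5ar1, 66 of AFX6 and 80 of AF32 served as background. Each EpiSC medium had 1 line and AloXR had 2, so line and medium cannot be told apart in any comparison with EpiSCs. The 90 cells come from 1 culture label and are not replicates, so no test was made between lines, and every SD, interval or rank below describes these cells only.

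Formative pluripotency is the state of the epiblast after it has left the naive state and before gastrulation begins. Its cells keep Pou5f1 and Sox2, switch on Otx2, Fgf5, Pou3f1 and the de novo DNA methyltransferases, and have turned off the naive factors Klf4, Esrrb and Tfcp2l1. FS cells are held there by weak Nodal/activin input with Wnt and retinoid signalling blocked, and they can respond directly to cues for germ cells and for the germ layers. Eomes, a T-box factor of the primitive streak and of the response to Nodal, marks the readiness of such cells for mesoderm and endoderm.

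Kept 5ar2 cells held 3322377 to 5884866 counts (median 4835258) and 10091 to 12603 genes with at least 1 count (median 11568). Protein-coding genes took 97.4% of the counts. The 6 cells left out had 208705 to 2910409 counts. Levels are given as CPM, counts per 1000000 counts of a cell. When levels of different genes are compared, they are line CPM, from counts summed over the 90 cells, divided by the kilobases of the gene's exons. Cells that stood apart were sought by Spearman's rho between a cell and the median profile of the line, which had a median of 0.778. Cell 49 was lowest at 0.596 and cell 25 was next at 0.622, followed by cell 8 at 0.698 and cell 65 at 0.700. Cell 49 had 2.05 CPM of Pou5f1, 0 of Sox2, 0.560 of Otx2 and 1.307 of Utf1, beside 35858 CPM of Acta2, 1867 of Col1a1 and 2814 of Krt8. This cell, from a well labelled 5ar2, thus had Pou5f1, Sox2 and Otx2 at or near 0. Cell 25 kept Pou5f1 at 478 CPM, Otx2 at 354.8 and Fgf5 at 439.6, with Cdkn1a at 487. Cell 8, one of the cells of few detected genes, had Pou5f1 at 53.2 CPM, Sox2 at 0 and Otx2 at 243.9. Cell 65 kept Pou5f1 at 569 CPM, while Sox2 was at 0, Cdh1 at 0 and Otx2 at 0.605. Sox2 was at 0 in other cells too, such as 12, 30 and 74, and Cdh1 in cells such as 3, 30 and 52. A 0 of either gene alone thus does not set a cell apart. The labels give only the line of a well, and whether cell 49 was an FS cell was not tested. Its values are part of every range and excess given here unless a value is said to be without it. Counts, groups and correlations that rest on cells 49 and 25 are given without them too, and the main ones also without cell 65. The choice of cells 25, 49 and 65 was made after their values were seen.

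The labelled state was checked against 5 markers, of which Fgf5, Otx2 and Dnmt3b were present in nearly every cell and Eomes and Pou3f1 in part of them. Fgf5, a growth factor of the post-implantation epiblast, ranged from 1.01 to 853 CPM with a median of 236.7, and reached 10 CPM in 89 cells. Otx2, the homeobox factor that directs exit from the naive state, ranged from 0.560 to 458 CPM (median 168.8) and reached 10 CPM in 88 cells. Dnmt3b, a de novo DNA methyltransferase, was the highest of the markers, at 99.4 to 2972 CPM with a median of 1402. The lowest Dnmt3b value was that of cell 49, and the lowest Otx2 values were those of cells 49 and 65. Eomes ranged from 0 to 261.8 CPM with a median of 28.2. It had a count in 81 cells and reached 10 CPM in 59. Pou3f1, a POU factor of the formative and early neural epiblast, ranged from 0 to 180.2 CPM (median 21.8) and reached 10 CPM in 58 cells. All 5 markers were at 10 CPM or more in 41 cells, 4 of them in 33 cells, 3 in 15 cells and 2 in 1 cell. In 5ar1 46 cells had all 5, against 1 cell of AFX6 and 0 of AF32.

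**Figure D1:**
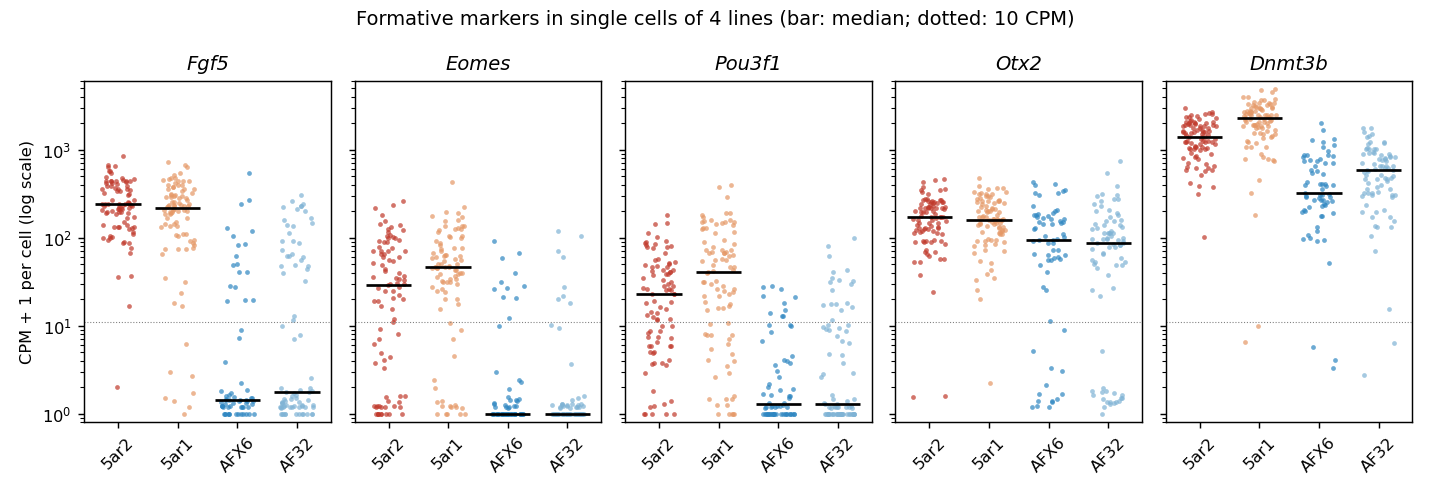
Level of the 5 formative markers in each kept cell (points, CPM + 1 on a log axis) of 5ar2 (90 cells), 5ar1 (90), AFX6 (66) and AF32 (80), with the median of the line as a bar and 10 CPM as a dotted line. In 5ar2 the Fgf5, Otx2 and Dnmt3b points lie above the line apart from Fgf5 in cell 65 and Otx2 in cells 49 and 65, Eomes and Pou3f1 reach down to 0, and the EpiSC medians of Fgf5, Eomes and Pou3f1 lie below 1 CPM.

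In the files' build, GRCm38, the markers lie at these positions: Fgf5 (ENSMUSG00000029337, chr5:98254184-98277030, plus strand), Eomes (ENSMUSG00000032446, chr9:118478212-118486132, plus strand), Pou3f1 (ENSMUSG00000090125, chr4:124656807-124660655, plus strand), Otx2 (ENSMUSG00000021848, chr14:48657677-48673819, minus strand) and Dnmt3b (ENSMUSG00000027478, chr2:153649450-153687730, plus strand). Median Fgf5 was 217.3 CPM in 5ar1, 0.441 in AFX6 and 0.766 in AF32. Line CPM of Fgf5 in 5ar2 was 1.187 times that of 5ar1 and 8.84 and 6.04 times that of AFX6 and AF32. Eomes in 5ar2 stood at 0.786 of its level in 5ar1 and at 7.27 and 8.24 times the EpiSC levels. For Pou3f1 the ratio to 5ar1 was 0.512, and those to AFX6 and AF32 were 8.59 and 3.98. Otx2 differed least, with ratios of 1.02, 1.502 and 1.614. Dnmt3b in 5ar2 lay below 5ar1 (0.639 times) and above both EpiSC lines (2.907 and 2.329 times). The ranges of single cells overlapped between all lines for each marker. Across the 90 cells the markers followed each other loosely. Spearman's rho was 0.369 between Eomes and Dnmt3b, 0.328 between Otx2 and Dnmt3b and 0.207 between Eomes and Pou3f1, and it lay between −0.086 and 0.179 for the other 7 pairs. These are correlations across cells that share depth and the number of detected genes, and are given as descriptions, as are all those that follow.

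The most abundant protein-coding genes per kilobase of exon were those of translation, glycolysis and protein folding. Eef1a1, the elongation factor that brings aminoacyl-tRNA to the ribosome, was first with 3566 CPM per kb. It was followed by Rplp1 (3002), the ferritin light chain gene Ftl1 (2643), Mif (2552), Rps2 (2465), the chaperone Hsp90ab1 (2413), Gapdh (2129), Npm1 (2103), Rplp0 (1991) and Ldha (1930). The next 10, from Ptma to Rpl32, held 6 more ribosomal protein genes, Actb (1523 CPM per kb), Eif5a and the glycolytic Aldoa (1411). Together these 20 genes took 7.63% of the counts. Most of them were steady from cell to cell. Eef1a1 ranged from 6365 to 12822 CPM, a 2.01-fold span, and Hsp90ab1 from 4410.3 to 9717 CPM. Ftl1 was an exception at 1414 to 8158 CPM, and so was Actb, cytoplasmic beta-actin, at 1912 to 10167 CPM. Among pluripotency genes on the same scale, Utf1 stood at 589 CPM per kb (rank 68 of 17174 protein-coding genes), Dnmt3b at 281 (rank 180), Pou5f1 at 218 (rank 241), Fgf5 at 109 (rank 566), L1td1 at 85.6 (rank 740) and Otx2 at 42.2 (rank 1486). Nanog (15.0 CPM per kb), Eomes (11.6), Dnmt3a (10.4), Pou3f1 (8.55) and Sox2 (8.497) were lower. The levels of these 5 genes lay within 2-fold of each other.

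Of 363 genes in 27 lists of pathways, states and cell types, 264 had a line CPM of at least 5, against 10272 of all 31617 genes of the table. In the formative list 16 of 17 genes did. Among them Dnmt3a had a median of 157.6 CPM (31.7 to 432) and Etv5, an ETS factor of the FGF response, 140.7 CPM (9.46 to 432). All 10 core pluripotency genes passed that level, and Pou5f1 itself was one of the steadier ones. It had 2.05 CPM in cell 49, 53.2 CPM in cell 8 and up to 826 CPM in others, around a median of 498. Tdgf1, the Nodal co-receptor, was the core gene that varied, from 0.198 to 611 CPM with a median of 12.9. Its line CPM was 36.8 in 5ar2 and 27.4 in 5ar1, against 839 in AFX6 and 1398 in AF32. In the naive list 1 of 11 measured genes, Klf5, reached a line CPM of 5 (18.6 CPM), and Nr0b1, Tfcp2l1 and Esrrb had medians of 0.

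Signalling genes are given by pathway, with counts of variable genes by the rule given below, which 5.35% of all tested genes met. Of the Nodal and activin list 12 of 14 genes reached 5 CPM, and 1 of 6 tested genes was variable. Foxh1, the DNA-binding partner of Smad2, had a median of 219.1 CPM, Smad2 43.9 CPM and the receptor Acvr2b 29.8 CPM. Past 2-fold, 0 genes of this list were higher than in either EpiSC line, while 5 of 9 were lower than in AFX6 and 6 of 11 lower than in AF32. Over all genes 9.33% were higher and 11.6% lower than in AFX6, and 6.744% higher and 13.0% lower than in AF32. In the FGF and ERK list 16 of 18 genes reached 5 CPM. The ligands Fgf5 and Fgf15 and the ERK phosphatase Dusp6 were the 3 of 10 tested genes that were variable between cells, and the receptor Fgfr1 lay just outside it. Dusp6 ranged from 0.856 to 619 CPM (median 133.0). Wnt genes gave 0 variable genes of 8 tested, with Ctnnb1, beta-catenin, at 70.2 to 584 CPM and the repressor Tcf7l1 at a median of 127.2 CPM. In the retinoic acid and the BMP and Id lists 1 of 4 tested genes each was variable. Rarg, the receptor that BMS493 acts on among others, had a median of 80.5 CPM, and the retinoid carrier Crabp2 ranged from 0 to 269.3 CPM (median 17.7). Id3, a target of BMP signalling, was at a median of 0.630 CPM but reached 10 CPM in 41 cells and 489 CPM in the highest. Among DNA methylation genes Dnmt3b alone of 7 tested was variable. Uhrf1, which brings Dnmt1 to replicating DNA, had a median of 237.8 CPM, and Tdg, a glycosylase of demethylation, was unusually even at 7.10 to 95.8 CPM.

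Markers of other cell types were low in the median cell, but the neural and fibroblast sums reached 10 CPM in many cells. Summed over the markers of a type (5 for primitive streak, extraembryonic endoderm and neural, and 4 for naive ESC, trophoblast and fibroblast), the level reached 10 CPM in 6 of the 90 cells for primitive streak, 14 for naive ESC, 6 for extraembryonic endoderm, 6 for trophoblast, 30 for neural and 37 for fibroblast. The summed level ran from 0 to 140.2 CPM for primitive streak, with a median of 0. Foxa2 was at 131 CPM in cell 21, and Mesp1 was at 0 in all 90 cells. Neural markers summed to between 0 and 139.98 CPM (median 0.616), with Neurod1 at 110 CPM in cell 6. The naive sum ran from 0 to 53.2 CPM, that of extraembryonic endoderm from 0 to 37.0 CPM and that of trophoblast from 0 to 28.9 CPM, all with a median of 0. Fibroblast markers had a median sum of 0.229 CPM and a highest sum of 2671 CPM in cell 49. In the other lines, which kept 90, 66 and 80 cells, this sum reached 10 CPM in 26 cells of 5ar1, 16 of AFX6 and 16 of AF32. In the same order the neural sum did so in 17, 10 and 22 cells and the trophoblast sum in 32, 6 and 15. For primitive streak these were 1, 3 and 14 cells, for naive ESC 14, 6 and 2, and for extraembryonic endoderm 9, 5 and 2. Zfp42, Cdx2, Lum and the 5 two-cell-like markers were not analysed here. Germ cell genes were low too, and Sycp3, a protein of the meiotic chromosome axis, was alone among 9 in reaching a line CPM of 5 (8.72 CPM, at least 10 CPM in 21 cells).

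Variation between cells was measured against genes of like abundance. For each of 6676 genes whose mean reached 20 CPM, the squared coefficient of variation (CV2) was compared, on the log2 scale, with the median of the 201 genes nearest in mean CPM. The difference is called the excess, and a gene was called variable from an excess of 1, which is a CV2 of at least 2 times that of its neighbours. In 5ar2 357 genes were variable, 5.35% of those tested. By the same rule 6.7% of tested genes were variable among 5ar1 cells, 5.71% among AFX6 cells and 6.749% among AF32 cells. Of the 357 genes 352 were protein coding, and 267 stayed variable when the highest cell of each gene was left out. Without cell 49 the number was 309, without cells 49 and 25 it was 291, and without cell 65 as well it was 278. Genes next to the threshold had an excess of 1.0011 inside it and 0.99856 outside it. Ribosomal protein genes gave 0 variable genes of 79, with a median excess of −0.47.

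**Figure D2:**
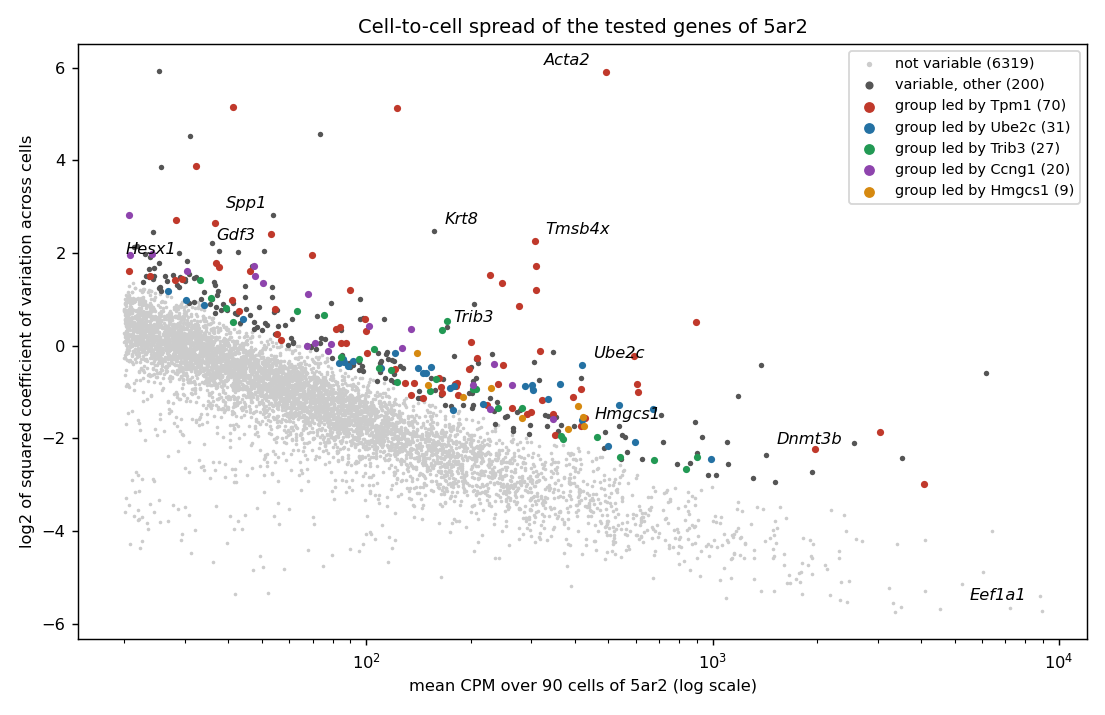
Spread of 6676 genes over the 90 cells of 5ar2: mean CPM on the x axis (log scale) and log2 CV2 on the y axis, with grey points for genes that were not variable and colours for the groups of variable genes that rose and fell together. Acta2 and Actc1 lie furthest above the genes of like mean (excess 9.25 and 7.02), and Eef1a1 lies below them (excess −1.61).

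Of the 6 genes that varied most for their abundance, 4 encode actins or a protein that binds actin (Acta2, Actc1, Acta1 and Tmsb4x) and the others were Col1a1, a collagen chain, and Thbs1, thrombospondin. Cell 49 was the highest cell for each of them. Acta2, smooth muscle actin, ranged from 0 to 35858 CPM with a median of 2.624, and the second highest cell had 3504. Its excess of 9.25 fell to 5.85 without the highest cell. Actc1, cardiac actin, ranged from 0 to 6821 CPM (median 0.389, second highest 854), with an excess of 7.02 that fell to 3.799 without the highest cell. Acta1, skeletal actin, ranged from 0 to 3093 CPM (median 0.462), with an excess of 5.75 and of 4.603 without that cell. Col1a1 and Thbs1 had an excess of 5.78 and 5.66, and without their highest cell their means fell below the level tested. Tmsb4x, which binds actin monomers, ranged from 1.346 to 5339.6 CPM (median 102.9, excess 5.21, and 4.24 without the highest cell). Keratins and vimentin, the intermediate filaments of epithelial and mesenchymal cells, were variable as well. Krt8 ranged from 0 to 2814 CPM (median 73.9), Krt18 from 0.554 to 1594 (median 137.5) and Vim from 75.2 to 2357 (median 401.2). Of 9 tested genes of the epithelial and mesenchymal list 8 were variable, beside 5.35% of all tested genes, with Epcam (22.04 to 913 CPM) and the tight junction gene Cldn6 (0 to 651 CPM) among them. Cdh1, E-cadherin, ranged from 0 to 396 CPM around a median of 28.7. Fibronectin, Fn1, had a median of 0.456 CPM and its highest value of 1405 CPM in cell 49.

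At the other end, 388 genes had an excess of −1 or less. Tdg was among them with an excess of −1.94, and so were Eef1a1 (−1.61), Eif5a (−1.63), Hsp90ab1 (−1.54), Gapdh (−1.27) and Npm1 (−1.21). The lowest excess of all genes of at least 100 CPM was that of Rps3a2 (−2.88), followed by Gm10020 (−2.73) and Gm8210 (−2.57). These 3 are processed pseudogene records, and uniquely mapped reads may be split between them and near-identical copies, so their evenness is uncertain. Trp53 (236.2 to 900.1 CPM, excess −0.03) and Ctnnb1 (excess −0.21) were as even as genes of like mean. Apart from protein-coding genes, 2 RNAs were far more abundant in cell 25 than elsewhere. The rRNA record CT010467.1 ranged from 1479 to 39841 CPM (median 5168), and the lincRNA Gm26917 from 269.9 to 10484 CPM (median 1203).

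Lists of smaller size are given by their counts of variable genes. Of tested genes these were 5 of 7 in the immediate early list, 4 of 7 in the Notch list, 3 of 10 in the imprinted list and 3 of 11 in the chaperone list, beside 5.35% of all tested genes. The Notch ligand Dll3, which acts within the cell, ranged from 0 to 511 CPM (median 88.6), and Meg3, a maternally expressed RNA, from 0.374 to 698 CPM (median 151.7). Hspb1, a small heat shock protein, ranged from 0 to 907 CPM (median 62.8). In the formative list 4 of 13 tested genes were variable (Fgf5, Dnmt3b and Utf1 among them), in the early neural list 2 of 2 (Tubb3 and Nes), in the primitive streak and endoderm list 1 of 1 (Eomes), in the trophoblast list 0 of 1, and in the fibroblast list 2 of 2 (Acta2 and Col1a1). The naive, germ cell, extraembryonic endoderm and two-cell-like lists had no gene that could be tested.

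Another form of variation was presence in part of the cells. A median under 5 CPM beside a mean of at least 20 CPM was found for 68 genes, of which 30 were variable, beside 5.35% of all tested genes. A mean far above the median goes with a wide spread, so this count is partly set by how the class was chosen. Gdf3, a TGF-beta ligand of the early embryo, had a median of 0.197 CPM and a maximum of 505 CPM, and 26 cells reached 10 CPM. Hesx1, a homeobox repressor of the anterior epiblast and forebrain, had a median of 0.223 and a maximum of 306.1 CPM, with 33 cells at 10 CPM or more. For Spp1, osteopontin, these values were 0.244 and 822 CPM and 35 cells. For the immediate early gene Egr1 they were 0.390 and 400.0 CPM and 32 cells. Notch1 reached 10 CPM in 40 cells and 369.3 CPM at most, in cell 25, and the next highest cell had 111.35 CPM. Without that highest cell the mean of Notch1 fell below the level tested. Col1a1 and Thbs1 were in this class too, but their highest values of 1867 and 2316 CPM were those of cell 49, and the next highest cells had 52.1 and 306.8 CPM. Reads carry no molecular identifiers, so a low value in single cells can also come from failed capture of a gene's mRNA, and the part of that in these counts was not tested.

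Variable genes that rose and fell together were grouped by Spearman's rho across the 90 cells. With groups cut at a mean rho of 0.3 and of at least 5 genes, 195 of the 357 genes fell into 11 groups, named here by their leading gene, the one of highest mean rho with its group. The mean rho within groups was 0.384 to 0.487, which the grouping itself sets, against 0.0053 over all tested genes and 0.0404 over all variable genes. Leaving out cells 49 and 25 changed it to between 0.349 and 0.471 for the same genes, and leaving out cell 65 as well to between 0.336 and 0.472. When variable genes were called and grouped anew, 9 groups of 169 genes in all were found without cell 49, 9 of 167 without cells 49 and 25, and 10 of 164 without cells 49, 25 and 65. Without cells 49 and 25 the genes that stayed in 1 group together were 4 of 7 for the Bnip3 group, 4 of 7 for the Hspa5 group, 3 of 6 for the Hesx1 group and 2 of 5 for the S100a11 group. For the Dnmt3b group they were 4 of 7 without cell 49 and all 7 without both cells. A group's score is the mean of log2(CPM + 1) over its genes. Scores shared little with depth (rho of −0.181 to 0.152 with summed counts). With the number of detected genes their rho was highest for the Ube2c group (0.523), the Ccng1 group (0.297) and the Tpm1 group (0.276), and lowest for the S100a11 group (−0.228).

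**Figure D3:**
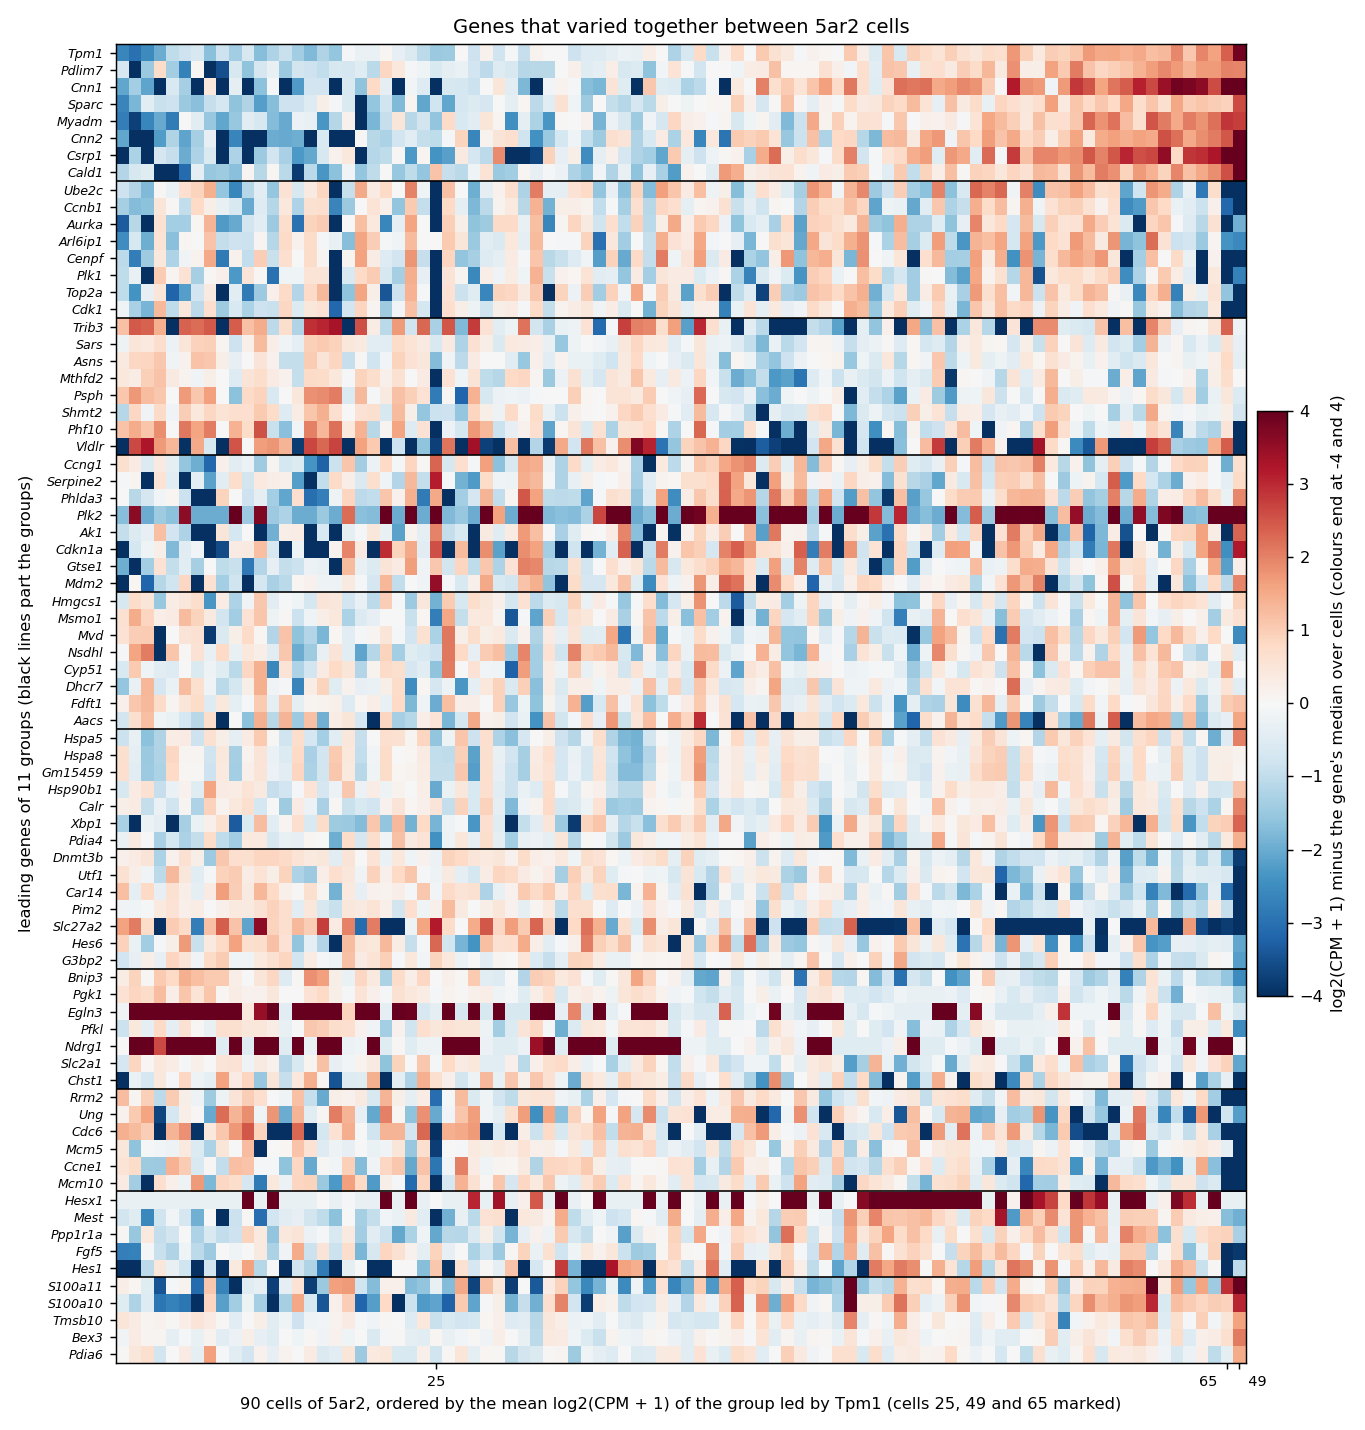
Leading genes of the 11 groups (rows, up to 8 a group) in the 90 cells of 5ar2 (columns, in order of the score of the Tpm1 group), with log2(CPM + 1) minus the gene's median as colour, ending at −4 and 4. Red is above and blue below the median: towards the right end, where the Tpm1 rows are red and cells 65 and 49 lie, the Dnmt3b rows turn blue, and cells 25, 49 and 65 are blue in the Ube2c and Rrm2 rows.

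The Tpm1 group was the largest, with 70 genes, and most of its leading members build or bind actin filaments: tropomyosin Tpm1, calponins Cnn1 and Cnn2, Csrp1, caldesmon Cald1, the myosin light chains Myl9 and Myl12a, Actb and Actg1. Tpm1 ranged from 78.2 to 9114 CPM with a median of 630.0. Cnn1 ranged from 0 to 2437 CPM around 88.5, Cnn2 from 0 to 4000.3 around 196.7, and Csrp1 from 0.745 to 4275 around 121.7. The highest cell was 49 for Tpm1, Cnn2, Csrp1 and Cald1, and 65 for Cnn1, Myadm and Vim. The mean rho of the group was 0.406 with and 0.393 without cells 49 and 25, and 0.377 without cell 65 as well. Without cell 49, 56 of the 70 genes were still variable and 45 stayed in 1 group together. Without cells 49 and 25 these numbers were 57 and 56, and without cells 49, 25 and 65 they were 50 and 41. Acta2 and Cnn1 had a rho of 0.711 (0.713 without both cells). The extracellular matrix gene Sparc (23.3 to 3196 CPM), Vim, Krt19, Thbs1 and the matricellular gene Ccn1 (0.201 to 2790 CPM, median 115.2) were members as well, and so were the neural list genes Nes and Tubb3. The same 70 genes had a mean rho of 0.243 in 5ar1, 0.222 in AFX6 and 0.0974 in AF32. Spearman's rho between Cnn1 and Pou5f1 was −0.102 in 5ar2.

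Serum response factor binds the CArG box, a 10-base element found near many actin and smooth muscle genes, and promoter windows were therefore searched for it. Windows were RefSeq's 300 bases from 250 before to 50 after the start site (GRCm38.p6), on either strand. A CArG box was found in 9 of the 62 genes of the group with a window (14.5%), which were Myadm, Cnn2, Actg1, Myl9, Myl6, Vcl, Glipr2, Anxa5 and Actc1. The share was 1.574% over the 5338 tested genes with a window and 1.806% over all 27025 genes with a window, counted per gene as in the group. Actc1 and Myl9 are shown because the element lies in the promoters of a cardiac actin and of a smooth muscle light chain that varied together, with the CArG box in capitals. The windows are chr2:114052826-114053125 on the minus strand and chr2:156775214-156775513 on the plus strand, and each is written 5′ to 3′ along its gene.
Actc1: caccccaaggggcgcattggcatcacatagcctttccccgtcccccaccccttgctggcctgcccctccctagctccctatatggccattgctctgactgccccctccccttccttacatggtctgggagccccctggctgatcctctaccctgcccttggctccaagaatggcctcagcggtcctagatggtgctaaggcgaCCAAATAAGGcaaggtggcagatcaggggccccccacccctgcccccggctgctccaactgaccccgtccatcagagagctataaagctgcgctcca
Myl9: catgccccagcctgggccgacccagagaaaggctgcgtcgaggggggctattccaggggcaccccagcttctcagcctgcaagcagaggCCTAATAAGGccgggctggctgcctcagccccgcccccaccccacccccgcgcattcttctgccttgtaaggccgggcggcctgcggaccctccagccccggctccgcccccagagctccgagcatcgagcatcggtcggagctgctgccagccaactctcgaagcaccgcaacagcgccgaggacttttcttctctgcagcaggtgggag
The element starts 47 bases before the start site in Actc1 and 161 before it in Myl9. A match is a stretch of letters and was not tested as a site in these cells, and the same holds for the promoters given below.

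The Ube2c group held 31 genes, most of its leading members genes of mitosis. Ube2c, the ubiquitin-conjugating enzyme of the anaphase-promoting complex, ranged from 0.747 to 1459.5 CPM (median 293.6), and cyclin B1, Ccnb1, from 1.07 to 1414 CPM (median 513). Ube2c and Ccnb1 had a rho of 0.864. Aurka, a spindle pole kinase, had a median of 250.2 CPM, Plk1 of 330.8 CPM and Cdk1, the mitotic kinase itself, of 394 CPM. Each of these genes fell below 3 CPM in its lowest cell. In the list of G2/M genes 16 of 24 were variable, against 5 of 22 in the list of G1/S and replication genes, beside 5.35% of all tested genes. The mean rho of the group was 0.476 in 5ar2, 0.389 in 5ar1, 0.560 in AFX6 and 0.607 in AF32. The Rrm2 group of 6 genes covered the other side of the cycle. Rrm2, which makes deoxynucleotides, ranged from 1.494 to 1275 CPM (median 501), the helicase subunit Mcm5 from 2.679 to 1288 (median 545) and cyclin E1, Ccne1, from 0.560 to 839 (median 206.8). The loading factor Cdc6 ranged from 0 to 335.9 CPM. Scores of both groups ran against each other across cells (rho −0.439, −0.538 without cells 49 and 25 and −0.591 without cell 65 as well). A few cells were low in both. Cell 49 was lowest for both scores (2.825 for Ube2c and 2.002 for Rrm2, against medians of 6.758 and 7.22), and cells 25 and 65 were among the 4 lowest for the first and had the next lowest scores for the second.

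The cell cycle genes homology region, CHR, with the letters TTTGAA, is the element through which many mitotic genes are repressed outside G2/M. It was found in the windows of 17 of 25 genes of the Ube2c group (68.0%), among them Ube2c, Aurka, Cenpf, Plk1, Top2a and Cdk1. The share was 14.1% over the tested genes and 20.2% over all genes with a window. Ube2c (chr2:164769679-164769978, plus strand) and Cdk1 (chr10:69352863-69353162, minus strand) are shown because they are the leading gene and the kinase of the group. Capitals mark the CHR letters, which read TTCAAA where the match is on the opposite strand.
Ube2c: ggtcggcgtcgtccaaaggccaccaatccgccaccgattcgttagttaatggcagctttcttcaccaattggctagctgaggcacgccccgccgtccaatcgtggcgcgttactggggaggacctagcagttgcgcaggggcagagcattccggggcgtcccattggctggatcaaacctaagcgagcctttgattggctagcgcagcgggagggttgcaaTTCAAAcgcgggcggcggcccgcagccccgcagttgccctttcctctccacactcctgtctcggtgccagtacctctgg
Cdk1: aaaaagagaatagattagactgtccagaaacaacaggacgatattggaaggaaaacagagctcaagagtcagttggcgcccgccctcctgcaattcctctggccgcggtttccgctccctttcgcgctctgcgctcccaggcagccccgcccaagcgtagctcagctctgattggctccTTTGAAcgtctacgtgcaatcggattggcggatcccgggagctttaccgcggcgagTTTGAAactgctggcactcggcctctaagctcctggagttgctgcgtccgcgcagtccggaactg
The match starts 29 bases before the start site in Ube2c, and in Cdk1 there are 2, starting 71 and 15 bases before it.

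The Trib3 group held 27 genes. Among them were Asns, Psph, Shmt2, Slc3a2, Slc7a5 and Slc1a5, of amino acid synthesis and uptake, and Atf4, Ddit3, Trib3 and Chac1, of the response that Atf4 drives when amino acids are short or proteins misfold. Others, such as Gys1, Mef2b and Otub2, are not known for either. Trib3, a pseudokinase that feeds back on Atf4, ranged from 0 to 797 CPM (median 79.6), and Chac1, which breaks down glutathione, from 0 to 906 (median 84.9). Trib3 and Chac1 had a rho of 0.751. Several biosynthetic and uptake genes were present in every cell at higher levels. Asns, asparagine synthetase, ranged from 263.1 to 1907 CPM (median 871), Slc3a2, the heavy chain of amino acid transporters, from 97.05 to 1849.6 (median 647) and Atf4 itself from 177.2 to 1578 (median 817). Shmt2 and Mthfd2, mitochondrial enzymes of one-carbon metabolism, had medians of 405 and 357.2 CPM. In the ATF4 list 13 of 15 genes were variable, the highest share among lists of more than 10 tested genes, beside 5.35% of all tested genes. The group had a mean rho of 0.421 in 5ar2 and 0.369 in 5ar1, and of 0.128 and 0.181 in AFX6 and AF32. Of the 15 list genes 9 were past 2-fold higher than in AFX6, 8 higher than in AF32 and 0 past 2-fold against 5ar1. Over all genes 9.33% were higher than in AFX6 and 6.744% higher than in AF32. Line CPM of Trib3 was 5.83 times that of AFX6 (exact 95% interval 5.70–5.96, which covers counting error only) and 9.04 times that of AF32, and 0.769 times that of 5ar1. Median Trib3 per cell was 124.4 CPM in 5ar1, 0.184 in AFX6 and 0.305 in AF32.

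Atf4 with its partners binds the amino acid response element, here searched as TGATGNAA. It was found in the windows of 8 of 22 genes of the Trib3 group (36.4%), which were Trib3, Asns, Vldlr, Chac1, Pck2, Pycr1, Chchd10 and Herpud1. The share was 2.398% over the tested genes and 4.51% over all genes with a window. Trib3 (chr2:152344011-152344310, minus strand) and Asns (chr6:7693160-7693459, minus strand) are shown because they are among the leading genes of the group, with the element in capitals on either strand.
Trib3: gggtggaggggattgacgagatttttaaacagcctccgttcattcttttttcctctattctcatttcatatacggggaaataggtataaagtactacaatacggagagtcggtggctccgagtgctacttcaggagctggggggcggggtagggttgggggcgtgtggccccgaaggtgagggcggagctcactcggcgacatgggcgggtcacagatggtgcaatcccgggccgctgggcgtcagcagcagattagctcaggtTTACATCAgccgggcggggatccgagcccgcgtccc
Asns: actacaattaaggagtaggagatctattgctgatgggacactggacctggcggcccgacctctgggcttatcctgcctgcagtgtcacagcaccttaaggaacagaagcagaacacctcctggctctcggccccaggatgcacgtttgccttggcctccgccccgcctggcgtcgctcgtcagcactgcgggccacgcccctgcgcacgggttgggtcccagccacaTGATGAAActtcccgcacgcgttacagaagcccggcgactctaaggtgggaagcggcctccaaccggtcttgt
In Trib3 the match is on the opposite strand and starts 14 bases after the start site, and in Asns it starts 23 bases before it.

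The Ccng1 group held 20 genes, among them the p53 targets Ccng1, Phlda3, Cdkn1a, Mdm2, Perp and Trp53inp1. Ccng1, cyclin G1, ranged from 0.623 to 1029.8 CPM (median 205.5). Cdkn1a, the inhibitor p21 of cyclin-dependent kinases, ranged from 0 to 757 CPM with a median of 81.5, and reached 100 CPM in 38 cells. Mdm2, the ubiquitin ligase of p53, ranged from 0 to 866 CPM (median 74.3). Spearman's rho between Cdkn1a and Ccng1 was 0.646 in 5ar2 and 0.622, 0.512 and 0.353 in 5ar1, AFX6 and AF32. Cell 25 was highest for Ccng1, Mdm2 and Serpine2, and cell 49 for Cdkn1a. Without both cells the mean rho of the group was 0.390, against 0.408 with them, but 14 of the 20 genes were still variable and 11 stayed in 1 group together. In the p53 list 7 of 12 genes were variable, beside 5.35% of all tested genes, while Trp53 and Bax, the death effector, were not (Bax 87.3 to 641 CPM). Against AF32, 6 of 12 genes of the list were past 2-fold higher and 0 lower, where 6.744% of all genes were higher and 13.0% lower. Against AFX6, 2 of 14 were higher and 3 lower, beside 9.33% and 11.6% of all genes, and against 5ar1 0 were past 2-fold. Scores of the Ccng1 and Trib3 groups ran against each other (rho −0.422, and −0.391 without cells 49 and 25).

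The Hmgcs1 group of 9 genes was made of enzymes of cholesterol and fatty acid synthesis, Hmgcs1, Msmo1, Mvd, Nsdhl, Cyp51, Dhcr7, Fdft1, Aacs and Fasn. Hmgcs1, which makes HMG-CoA, ranged from 38.7 to 1390.3 CPM (median 397) and Cyp51, lanosterol demethylase, from 35.2 to 1433 (median 339.1). In the list 9 of 23 genes were variable, beside 5.35% of all tested genes, and the pathway's regulator Srebf2 was not (35.1 to 396 CPM). The group had the same cohesion without cells 49 and 25 (mean rho 0.443 and 0.448), and its score had a rho of 0.038 with detected genes. This pathway was also lower in 5ar2 than in EpiSCs: 10 of 25 list genes were past 2-fold lower than in AFX6 and 9 of 23 lower than in AF32, with 0 higher in either, where 11.6% and 13.0% of all genes were lower. Against 5ar1 2 of 23 were lower, beside 1.684% of all genes. Hmgcs1 had a line CPM of 423 in 5ar2, 698 in 5ar1, 1053 in AFX6 and 1051 in AF32. A sterol regulatory element, searched as TCACNCCAC, was found in the window of 1 of 8 genes of the group, Hmgcs1, and of 1.424% of tested genes.

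The Hspa5 group held 7 records, most of chaperones and of folding in the endoplasmic reticulum. Hspa5, the chaperone BiP, ranged from 216.2 to 3355 CPM (median 836), Hsp90b1 from 214.02 to 2577 (median 861) and the cytosolic Hspa8 from 544 to 7732 (median 2402). Hspa5 and Hsp90b1 had a rho of 0.692. Calr, Xbp1 and Pdia4 were members whose call was lost without cell 49, and Gm15459 is a processed pseudogene record that may share reads with a near-identical gene. Hspa5 and Trib3 had a rho of −0.337 in 5ar2, −0.455 in 5ar1, 0.085 in AFX6 and −0.013 in AF32. The S100a11 group of 5 genes held S100a11 and S100a10, small proteins of the S100 family, Tmsb10, which binds actin monomers, Bex3 and Pdia6. S100a10 ranged from 1.565 to 2129.9 CPM (median 125.1) and Tmsb10 from 76.99 to 1910.2 (median 497). With the authors' normalized values 0 of its 5 genes fell into a group. Only groups of at least 5 genes were kept, so a group of 5 that loses a gene is no longer counted. How many of the 5 genes stayed together there cannot be told.

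The Dnmt3b group of 7 genes joined Dnmt3b with Utf1, a chromatin protein of pluripotent cells, and with Car14, Pim2, Slc27a2, Hes6 and G3bp2. Dnmt3b levels were given above. Utf1 ranged from 1.307 to 1717 CPM (median 696), and Pim2, a survival kinase, from 6.3502 to 4583 CPM (median 1903). The lowest Utf1 value was that of cell 49. Spearman's rho between Dnmt3b and Utf1 was 0.526 in 5ar2, 0.505 without cells 49 and 25, and 0.191, 0.193 and 0.389 in 5ar1, AFX6 and AF32. The Dnmt3b score ran against the Tpm1 score with a rho of −0.648, the lowest of any pair of groups, of −0.636 without both cells and of −0.625 without cell 65 as well. Spearman's rho between Cnn1 and Dnmt3b was −0.643 (−0.647 without cells 49 and 25, and −0.635 without cell 65 as well), against −0.178 in 5ar1, 0.116 in AFX6 and 0.105 in AF32, and rho between Cnn1 and Utf1 was −0.389. In the 2 cells of highest Tpm1 score, 49 and 65, Dnmt3b was 99.4 and 385 CPM, and in the next 2, 71 and 47, it was 916 and 581 CPM. In the 2 cells of lowest Tpm1 score, 51 and 86, it was 1623 and 1743 CPM.

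The Bnip3 group of 7 genes joined the mitophagy receptor Bnip3 with Pgk1, Pfkl and the glucose transporter Slc2a1, and with the hypoxia-responsive genes Egln3 and Ndrg1. Bnip3 ranged from 27.1 to 791 CPM (median 221.5), Pgk1 from 328.4 to 2922 (median 1251) and Slc2a1 from 140.1 to 2746 (median 1071). Bnip3 and Pgk1 had a rho of 0.785. The more abundant glycolytic genes Gapdh, Pkm and Eno1 were not variable, and 6 of 17 genes of the list were, beside 5.35% of all tested genes. Slc2a3, the high-affinity transporter, was variable outside the group at 69.3 to 1932 CPM (median 609). Its line CPM was 710.0 in 5ar2 and 649 in 5ar1, against 3796 in AFX6 and 1979.6 in AF32. The Bnip3 score went with the Trib3 score (rho 0.542) and the Dnmt3b score (0.523), and against the Tpm1 score (−0.517, and −0.505 without cells 49 and 25). With the authors' normalized values 5 of its 7 genes joined those of the Trib3 group. So did 5 without genes on chromosomes 16 and 19, 4 without cells of few detected genes, and 4 without cells 49 and 25, with or without cell 65. Without cell 49 alone 5 stayed in a group of 9 genes, apart from the Trib3 genes.

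The Hesx1 group held 6 genes, among them Hesx1, the imprinted Mest, Ppp1r1a, Fgf5 and the Notch target Hes1. Mest ranged from 1.07 to 2568 CPM (median 255.2) and Hes1 from 0 to 383.01 (median 38.5). Of the 5 formative markers, Fgf5 fell into this group (rho of 0.487 with Hesx1) and Dnmt3b into its own, while Eomes was variable outside the groups and Otx2 was not variable. Spearman's rho between Fgf5 and Dnmt3b was −0.086, and the scores of the Hesx1 and Dnmt3b groups had a rho of −0.494. Eomes and Otx2 had rho of 0.056 and 0.105 with Hesx1. The mean rho of the group was 0.412 in 5ar2, 0.180 in 5ar1, 0.017 in AFX6 and 0.0023 in AF32. Without cell 49, 5 of its 6 genes joined the genes of the Tpm1 group. Hesx1 itself had a median of 0 in each of the other lines, and its highest cell had 115.04 CPM in 5ar1 and 0.573 CPM in AF32.

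**Figure D4:**
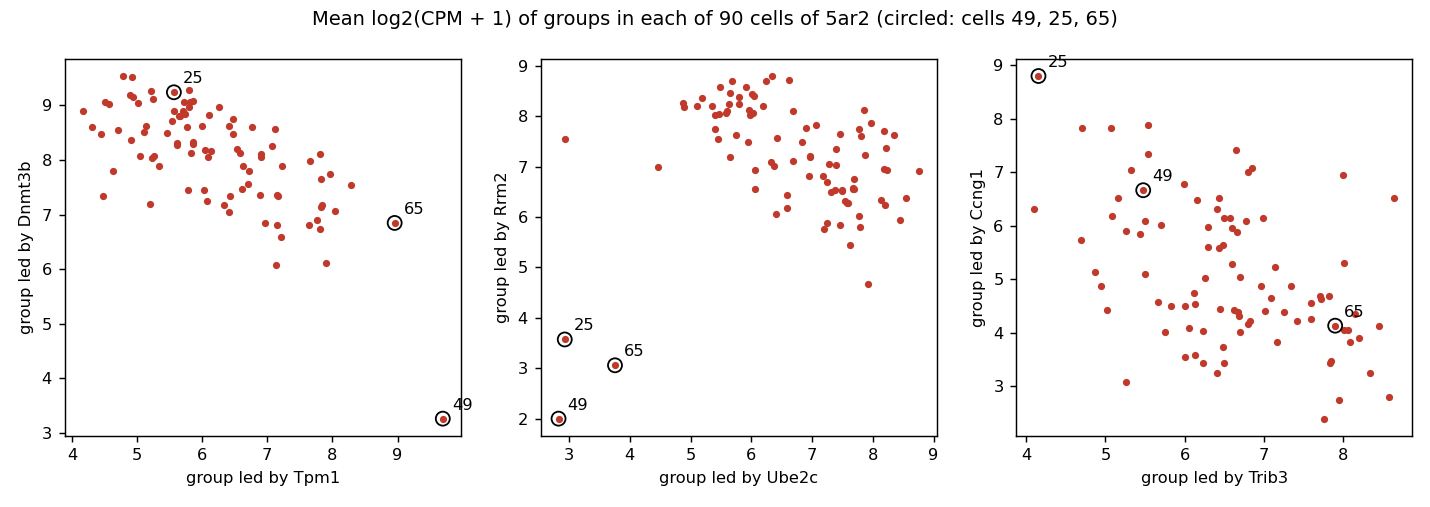
Scores of 3 pairs of groups in the 90 cells of 5ar2, each the mean log2(CPM + 1) of a group's genes, with cells 25, 49 and 65 circled: Tpm1 against Dnmt3b (rho −0.648), Ube2c against Rrm2 (rho −0.439) and Trib3 against Ccng1 (rho −0.422). Cell 49 lies alone at high Tpm1 and low Dnmt3b score, and cells 25, 49 and 65 lie low on both cell cycle scores.

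Groups were compared with the other lines by the mean rho of the same genes there. Since the groups were formed on 5ar2, a lower value elsewhere is partly set by that choice. Some genes are low or absent in another line, and the part of that in its values was not tested. Hesx1 had 0 counts in AFX6, where the mean rests on 5 of the 6 genes of its group. Of the 70 Tpm1 genes 59 reached the level tested in 5ar1, 68 in AFX6 and 62 in AF32. In the same order 17, 20 and 16 of the 20 Ccng1 genes did, and 5 of the 6 Hesx1 genes in each line. The value was higher in another line than in 5ar2 for the Hspa5 group (0.528 in 5ar1), the Rrm2 group (0.476 in 5ar1, 0.416 in AF32) and the Ube2c group (both EpiSC lines). The lowest values were those of the Hesx1 group in AF32 (0.0023) and AFX6 (0.017), the Ccng1 group in AF32 (0.072) and the Tpm1 group in AF32 (0.0974). Of the 357 variable genes, 323 could be tested in 5ar1 as well, where 185 were variable (57.3% of those 323, and 46.7% of the 396 that 5ar1 called among genes tested in both). With AFX6 148 were shared (45.0% of 329 and 47.7% of 310), and with AF32 166 (51.7% of 321 and 43.0% of 386). Over all genes tested in both lines, 396 of 6405 were variable in 5ar1, 310 of 6063 in AFX6 and 386 of 6224 in AF32. Of the 357 genes 294 were tested in all 4 lines, and of these 77 were variable in each and 73 in 5ar2 alone. The genes were picked by the threshold in 5ar2, so the number in 5ar2 alone is partly set by that choice. On chromosomes 16 and 19, 5.65% and 6.2% of tested genes were variable, beside 5.35% in all. The median excess of these chromosomes was the highest of all, at 0.079 and 0.139, and chromosome 15 was next at 0.069.

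**Figure D5:**
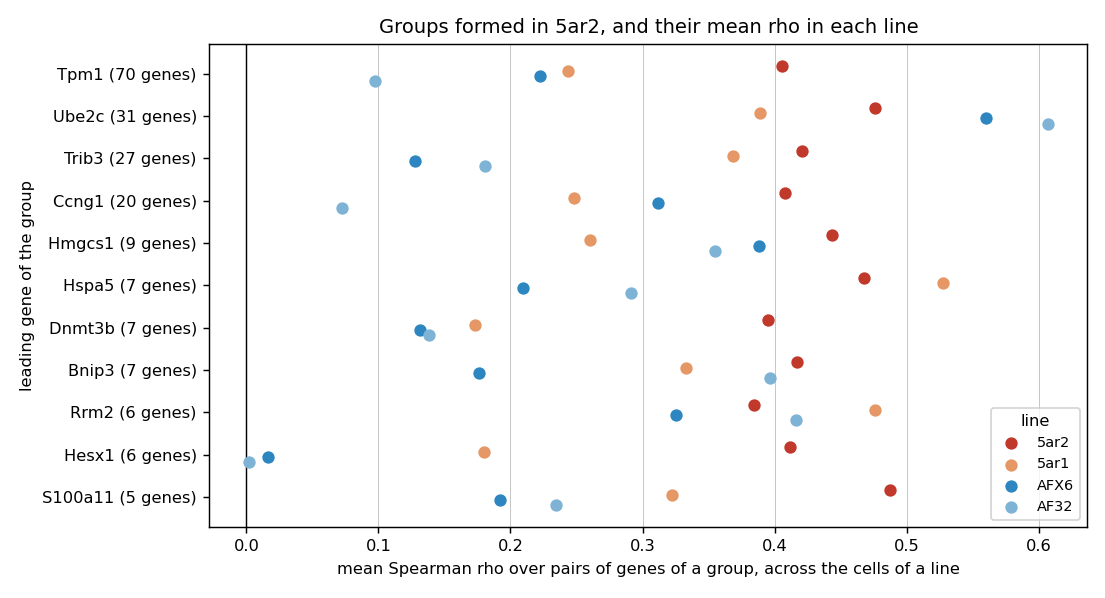
Mean Spearman's rho between the genes of each of the 11 groups in 5ar2, 5ar1, AFX6 and AF32, over the kept cells of each line. The groups were formed in 5ar2, where all lie between 0.384 and 0.487, and the Ube2c and Rrm2 groups stay above 0.3 in all lines while the Hesx1 group is near 0 in both EpiSC lines.

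Lines were compared by folds of line CPM over genes that reached 20 CPM in one of the 2 lines. Against 5ar1, cultured in the same medium, 68 of 7124 genes were past 2-fold higher in 5ar2 (0.955%) and 120 lower (1.684%). The share was 9.33% higher (699 genes) and 11.6% lower (868 genes) of 7489 against AFX6, and 6.744% higher (517) and 13.0% lower (998) of 7666 against AF32. All 3 comparisons share the cells of 5ar2. Of all calls, those higher in 5ar2 were 36.2% against 5ar1, 44.6% against AFX6 and 34.1% against AF32. This split depended on how a line's level was taken. With the median of CPM per cell and a pseudocount of 1, it was 76.3% against AFX6 and 68.5% against AF32, with the median log2 fold of all genes shifted to 0.32 and 0.20. Against 5ar1 it was 47.2% without cells of few detected genes. The genes highest in 5ar2 over all 3 other lines included genes that were on in part of its cells. Hesx1 had a line CPM of 29.8, 11.4 times that of 5ar1 (interval 10.7–12.1). In AFX6 it had 0 counts, and the level in 5ar2 was at least 3307-fold higher than the limit of 3 counts over that line. Gdf3 stood at 52.2 CPM against 14.1 in 5ar1, 0.204 in AFX6 and 8.02 in AF32. Tnnt1, slow troponin T, stood at 47.1 CPM and was 3.68, 15.5 and 24.1 times higher. Ifitm3, an interferon-induced membrane protein, was 2.649 to 3.34 times higher, and Socs1, an inhibitor of JAK signalling, 2.543 to 6.119 times.

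Some of these folds were those of cell 49. Acta2 had a line CPM of 535 in 5ar2, 46.1 times that of 5ar1 and 13.01 times that of AFX6, and without cell 49 these folds were 8.19 and 2.312. For Actc1 they were 11.7 and 5.42 with the cell and 4.16 and 1.929 without it. Col1a1 was 9.87 times the level of 5ar1 with cell 49 and 1.714 times without it, which ended its call, and against AFX6 the fold went from 6.8 to 1.181. Krt8 and Krt18 were 5.29 and 2.179 times the level of 5ar1, and 4.18 and 1.954 times without cell 49. For Gdf3 the fold against 5ar1 was 3.71 with and 3.75 without the cell, and for Hesx1 it was 11.4 and 11.6. Lower than in all 3 other lines were Dhrs7, a short-chain dehydrogenase (20.5 CPM against 82.8, 138.5 and 188.4 in 5ar1, AFX6 and AF32), and Soat1, which esterifies cholesterol (121.6 CPM against 289.8, 357.9 and 347.9). Tnfrsf22, Platr14, Them4, Arrdc1, Epha2, 2610005L07Rik, Trap1a and Parp6 were the others of the 10 that the rule names. Epha2, an ephrin receptor, was at 13.5 CPM against 34.2 to 37.5 CPM in the other lines.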

How the data were processed

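Single cells of 4 mouse lines were measured by Smart-seq2, and the line of each cell was taken from its label. The authors aligned reads with STAR 2.7.3a to GRCm38.p6 and counted uniquely mapped reads per gene with featureCounts 2.0.0, and these counts were used as deposited, for 31617 genes. The authors also deposited sctransform-normalized values, treated here as a depth-corrected score and used as an alternative only. As depth sets a floor, a count of 0 allows up to 3 counts, and intervals cover counting error only, since Smart-seq2 reads carry no molecular identifiers and several can come from 1 molecule.

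Cells with at least 3000000 counts were kept, as in the study. No doublet caller was run, since cells were sorted singly, and 0 cells had identical counts. CPM, the excess of log2 CV2, Spearman's rho, average-linkage groups and folds were computed with Python 3.11.15, numpy 2.4.6, pandas 2.3.3 and scipy 1.17.1. TMM factors for an alternative came from edgeR 4.0.16 in R 4.3.3, and plots from matplotlib 3.10.9. Exon lengths were unions of exons in GENCODE M21, found for 31565 genes. Thinning used the seed 1. The measures were tested on simulated data.

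Genes are named by a rule: the 5 markers, the 20 genes of highest CPM per kb, the 30 of highest excess that stay called without their highest cell, the 10 steadiest of at least 100 CPM, up to 8 leading genes of each group, the 10 largest folds each way against all 3 lines, and from each of 27 lists the variable members and up to 5 others of highest CPM. Acta2, Actc1, Acta1 and other genes named for cells 25, 49 and 65, and members further down the groups, were added with their values in view. Values of some genes are not reported here. The members and lists were chosen with earlier results of these data known. Alternatives changed the scaling, the minimum level, the number of neighbours, the measure of spread and the cells kept, and those that leave out cells 49, 25 and 65 or chromosomes 16 and 19 were added after seeing the data.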

Additional observations from a re-analysis of the deposited data

How the results depend on the processing

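Of 100 recomputed main values, all of them counts, 81 stayed within 1.5 times of the count reported. Apart from the abundant genes, this compares the size of a list and not its genes. By medians per cell, 178 genes were lower than in 5ar1, and 69 of them were among the 120 reported. The ranking of abundant genes by CPM without division by length kept 13 of the 20. Variable genes numbered 264 to 496 under other levels, neighbours, scalings and cells, but 1237 by the variance of log2(CPM + 1), of which 242 were shared. By that measure S100a11 went to an excess of −2.143 and 29 named genes were no longer called. Dnmt3b, Hmgcs1, Hspa5 and Bnip3 were among them, so the leading genes of these groups and of the S100a11 group lost their call. Under every setting 131 genes were called. Leaving out cell 49 ended the call of Ak1, Calr, Xbp1, Pdia4, Mcm10 and Bex3. With at least 50 CPM, 27 genes were higher and 46 lower than in 5ar1, 425 and 472 than in AFX6, and 321 and 490 than in AF32. With at least 5 CPM these were 246 and 399, 1290 and 1548, and 956 and 1846. Medians of CPM per cell with a pseudocount of 1 gave 149 higher against 5ar1, 1644 higher and 511 lower against AFX6, and 1214 and 558 against AF32. The causes of these shifts were not tested. By medians per cell, Hesx1, Gdf3 and Actc1 lay within 2-fold of 5ar1, and Parp6 lost its call without cells of few detected genes. Without cell 49, 55 genes were higher and 121 lower than in 5ar1.

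No paired analysis was possible because numbers in the labels only name wells, each line is 1 sample and no result comes from a test. Detection of genes of a few CPM is limited by depth, and differences between lines have no replicate check.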
